A study of Mus musculus with 12 samples.

Results

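Places that carried trimethylated lysine 4 of histone H3 (H3K4me3) in both treatments but no dimethylated form (H3K4me2) in vehicle-treated cells were described across the deposited peak lists of differentiating C2C12 cells. C2C12 is an established line of mouse muscle precursor cells; when serum is lowered, the cells leave the cell cycle and fuse into myotubes. Peaks of all 6 lists that overlapped by at least 1 bp were merged into 51372 regions. Of these, 12715 held an H3K4me3 peak with S2101 and with vehicle, and 368 of the 12715 held no vehicle H3K4me2 peak, which is 2.89% of the stable H3K4me3 regions. The other 12347 stable H3K4me3 regions, all with a vehicle H3K4me2 peak, are the set they are compared with. The 368 regions were chosen by these measured peak calls (H3K4me3 in both treatments, H3K4me2 with vehicle), so those states are a description and not a finding.

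One group of cells received the LSD1 inhibitor S2101 at 10 µM and the other received vehicle, both in differentiation medium with 2% horse serum for 48 h, to day 2. Chromatin immunoprecipitation with sequencing was done once per mark and treatment, so there was 1 library for each of H3K4me1, H3K4me2 and H3K4me3 with S2101 and 1 for each with vehicle. The H3K4me3 libraries come from experiment 2 and the H3K4me1 and H3K4me2 libraries from experiment 1, and mark and experiment cannot be told apart when marks are compared. With 1 library per group no test between treatments was possible, intervals cover counting error only, and the read depth behind the lists is unknown. A peak that is weak in every cell and one that is strong in few cells cannot be told apart in such bulk chromatin.

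Methylation of H3K4 is built up stepwise. H3K4me3 marks the nucleosomes around active transcription starts, H3K4me2 commonly spreads over the same promoters and their flanks, and H3K4me1 lies on promoter shoulders and on enhancers. LSD1 (Kdm1a) removes methyl groups from the mono- and dimethylated forms and cannot act on the trimethylated one. In most cells a promoter with H3K4me3 also carries H3K4me2, which makes places with H3K4me3 alone an uncommon state. No genome or gene annotation of the mm9 build was at hand, so regions are given by mm9 position, counted from 1, without gene names or sequence.

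Most of the 368 regions were marked by H3K4me3 alone, in both treatments. No other H3K4 mark was listed with either treatment in 306 of them (83.2%). A further 46 (12.5%) held H3K4me2 with S2101 as their sole other mark, 8 held H3K4me1 with vehicle only, 5 held H3K4me1 in both treatments, 1 held H3K4me1 with S2101 only, and 2 held S2101 H3K4me2 together with vehicle H3K4me1. No region held H3K4me2 and H3K4me1 together with S2101. Only 48 held the former and 6 the latter, too few for the lack of a shared region to be read as a result. No like count was made over all stable regions.

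S2101 H3K4me2, a library that the rule did not use, was also mostly lacking there. It was listed in 48 of the 368 regions, or 13.0% (95% Wilson interval 9.98 to 16.9%), against 11600 of 12347 regions with vehicle H3K4me2, or 93.9% (93.5 to 94.4%). Over all stable H3K4me3 regions the share was 91.6%. The difference was −80.9 percentage points (Newcombe interval −84.0 to −77.1). The 2 sets were split on the same mark with vehicle, from the same experiment. Any agreement between the 2 H3K4me2 lists therefore gives a gap of this direction, and the gap describes that agreement only. H3K4me1 was scarce as well. With S2101 it was listed in 6 of the 368 regions (1.63%, 0.749 to 3.51%), against 14.7% of the regions with vehicle H3K4me2 and 14.4% of all stable regions. With vehicle it was listed in 15 (4.08%, 2.49 to 6.62%), against 40.0% of the regions with vehicle H3K4me2 and 38.9% of all stable regions. The differences were −13.1 points with S2101 (−14.2 to −11.1) and −35.9 points with vehicle (−37.7 to −33.2). Marks were counted over the whole merged region, with a median width of 897.5 bp in the 368 and 2234 bp in the comparison regions. The vehicle H3K4me2 peak that the rule gives the comparison regions can widen them and so take in more flanking H3K4me1. The sets were not matched for region width, so how much of the H3K4me1 differences comes from width was not tested. With H3K4me1 lists of equal length, vehicle H3K4me1 was listed in 1.63% of the 368 regions. With a score of at least 200 required in all 6 lists, H3K4me1 was listed in 0.186% of the regions so chosen with S2101 and in 1.49% with vehicle. Both settings take peaks out of the H3K4me1 lists, which can lower the share in any set of regions. In the comparison regions the median H3K4me1 score was 141 with S2101 and 185 with vehicle. Their shares under these settings were not computed, so these values add nothing to the contrast.

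**Figure D1:**
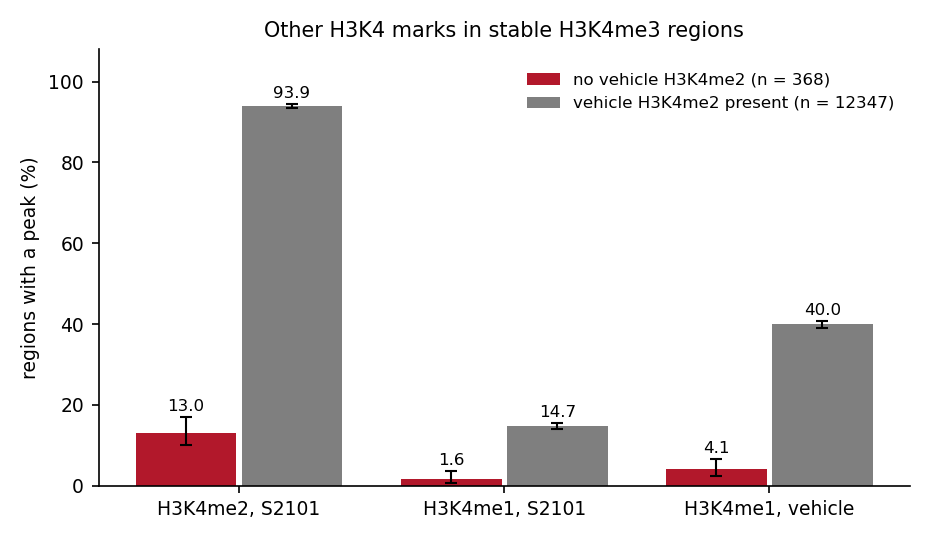
Percentage of stable H3K4me3 regions that hold a peak of H3K4me2 with S2101, H3K4me1 with S2101 or H3K4me1 with vehicle, for the 368 regions without vehicle H3K4me2 (red) and the 12347 with it (grey). Bars start at 0 and error bars are 95% Wilson intervals for counting error; each red bar is far below its grey partner, for example 13.0% against 93.9% for S2101 H3K4me2.

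H3K4me3 itself was short in these regions. Its covered length had a median of 835.5 bp with S2101 (quartiles 614 and 1180.5, range 237 to 3483 bp) and 704.5 bp with vehicle (quartiles 513 and 1029.75, range 258 to 3433 bp). In the regions with vehicle H3K4me2 the medians were 1895 bp with S2101 and 1779 bp with vehicle. A single H3K4me3 peak was listed in nearly every region, as in nearly all stable regions. More than 1 peak was listed with S2101 in 7 of the 368, or 1.90% (3.78% of all stable regions). With vehicle it was 10, or 2.72% (5.20% of all stable regions).

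The H3K4me3 scores were low in their lists too. The deposited score is the authors' value for each peak and ranks peaks within a list only. The highest score per region had a median of 429 with S2101 (range 100.46 to 3127.12) and 261 with vehicle (range 100.03 to 3100). At the median region, 16.9% of the S2101 list and 11.3% of the vehicle list scored lower. Scores pile up at 3100 in these lists, and scores of that value or more are called the limit here. The limit was reached with S2101 in 9 of the 368 regions (67.0% of all stable regions) and with vehicle in 4 (60.1% of all stable regions). These counts are 2.45% of the 368 with S2101 and 1.09% with vehicle. With a score of at least 200 required in all 6 lists the shares were 13.6% with S2101 and 8.55% with vehicle, and with single vehicle H3K4me3 peaks in place of regions the S2101 share was 7.43%.

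The share of stable H3K4me3 regions without vehicle H3K4me2 was lower in each longer class of H3K4me3 length and in each higher class of score. Where vehicle H3K4me3 covered up to 500 bp, 80 of 219 regions lacked vehicle H3K4me2 (36.5%, 30.4 to 43.1%). The share was 10.9% of 1735 regions at 501 to 1000 bp, 2.06% of 2669 at 1001 to 1500 bp, 0.731% of 5469 at 1501 to 2500 bp and 0.152% of 2623 above 2500 bp. Regions of up to 1000 bp thus made up 269 of the 368. By the vehicle H3K4me3 score, the share was 16.1% of 1272 regions in the lowest 10% (100.03 to 320.25), 8.34% of 1271 in the next 10%, 3.46% of 1272 at scores of 965.68 to 2041.77, 0.714% of 1261 from there to below the limit, and 0.0524% of 7639 at the limit. With a score of at least 200 required in the H3K4me3 lists only, 219 regions were left in place of 368, and with it required in all 6 lists there were 538. These shares describe how the rule picked its regions and carry no test.

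The scarcity of the other marks was present at every length with more than 4 regions to compare. These classes match the vehicle H3K4me3 length and not the width of the merged region, over which the other marks were counted. In the 189 regions of 501 to 1000 bp, S2101 H3K4me2 was listed in 14.8%, against 82.0% of the 1546 regions of that length with vehicle H3K4me2. In the 80 shorter ones it was listed in 13.8%, against 69.8% of 139, and in the 55 of 1001 to 1500 bp in 14.5%, against 92.5% of 2614. None of the 40 regions of 1501 to 2500 bp had it, against 96.4% of 5429. Vehicle H3K4me1 in the same order of length, from the shortest class up, was listed in 2.50%, 3.70%, 9.09% and 2.50% of the regions without vehicle H3K4me2. In the regions with it, the shares were 36.7%, 39.2%, 33.4% and 37.8%.

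**Figure D2:**
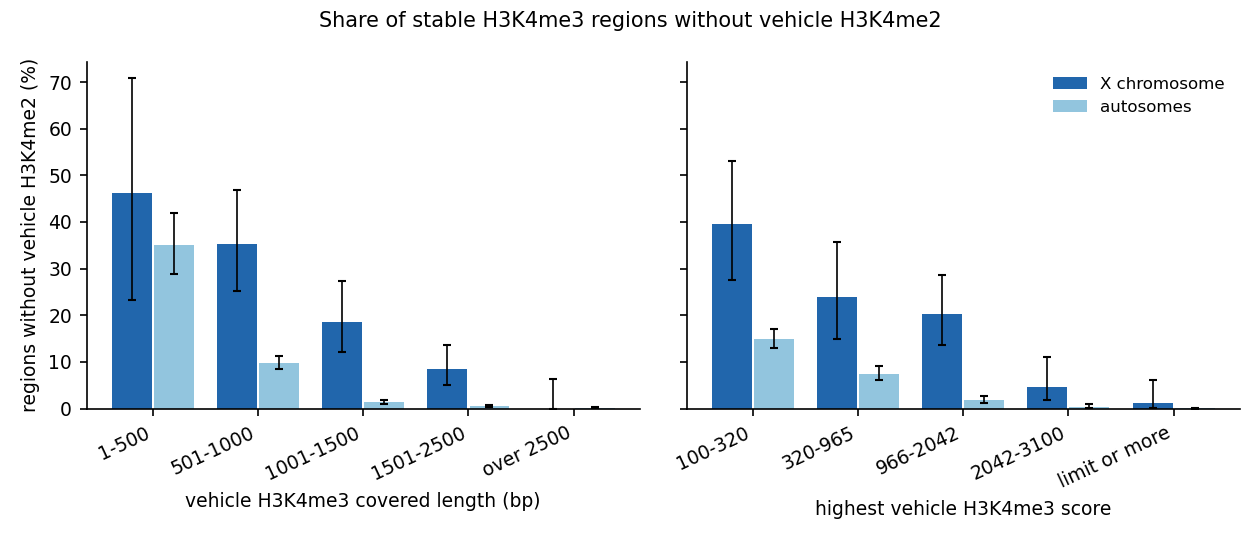
Percentage of stable H3K4me3 regions that lack vehicle H3K4me2, by class of vehicle H3K4me3 covered length in bp (left panel) and of highest vehicle H3K4me3 score (right panel), for the X chromosome (dark bars) and the autosomes (light bars), with 95% Wilson intervals for counting error. The bars shrink from the shortest to the longest and from the lowest to the highest class, and the X bar is the higher one except above 2500 bp, where 0 of 56 X regions lacked the mark.

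H3K4me3 was slightly longer with S2101 in most of the 368 regions, as it was in most stable H3K4me3 regions. The covered length was 1.11 times as long with S2101 as with vehicle at the median (95% interval of the median 1.09 to 1.15, quartiles 0.996 and 1.32), compared with 1.06 (1.06 to 1.06, upper quartile 1.14) in the regions with vehicle H3K4me2. It was longer with S2101 in 273 of the 368 regions, or 74.2%, close to the 75.0% of all stable regions. It was shorter in 93 (24.7% of all stable regions) and equal in 2 (0.244% of all stable regions). Medians per autosome ran from 0.922 to 1.31, with 18 of 19 above 1. The exception was chromosome 19 with 3 regions. In the comparison regions the medians per autosome ran from 1.05 to 1.07, with 19 of 19 above 1. The median added length at the lower coordinate was 32 bp in the 368 regions (95% interval 17 to 48) and 45 bp in the comparison regions (42 to 47). At the higher coordinate it was 38 bp in the 368 regions (22 to 53) and 44 bp in the comparison regions (42 to 47).

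Larger differences in length between treatments were more common among these short regions. H3K4me3 was at least 1.5 times as long with S2101 in 49 of the 368 (13.3%, 10.2 to 17.2%), against 364 of the 12347 with vehicle H3K4me2 (2.95%), and in 3.25% of all stable regions. It was at least 1.5 times shorter with S2101 in 4 of the 368, and in 0.142% of all stable regions. Set beside regions of like vehicle length up to 1000 bp, however, the median ratio was not higher. Vehicle length is also the divisor of the ratio, so class and ratio are not independent. Up to 500 bp of vehicle H3K4me3 it was 1.13 (1.02 to 1.32) in regions without vehicle H3K4me2 and 1.48 (1.33 to 1.54) in those with it. At 501 to 1000 bp it was 1.13 (1.09 to 1.17) and 1.17 (1.15 to 1.18). At 1001 to 1500 bp the medians were nearly equal, at 1.088 (1.03 to 1.16) and 1.086 (1.08 to 1.09). At 1501 to 2500 bp they were 1.10 (1.04 to 1.19) and 1.05 (1.05 to 1.05). The 48 regions with S2101 H3K4me2 had a median ratio of 1.12 (1.02 to 1.28), and the 320 without it 1.11 (1.08 to 1.15).

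**Figure D3:**
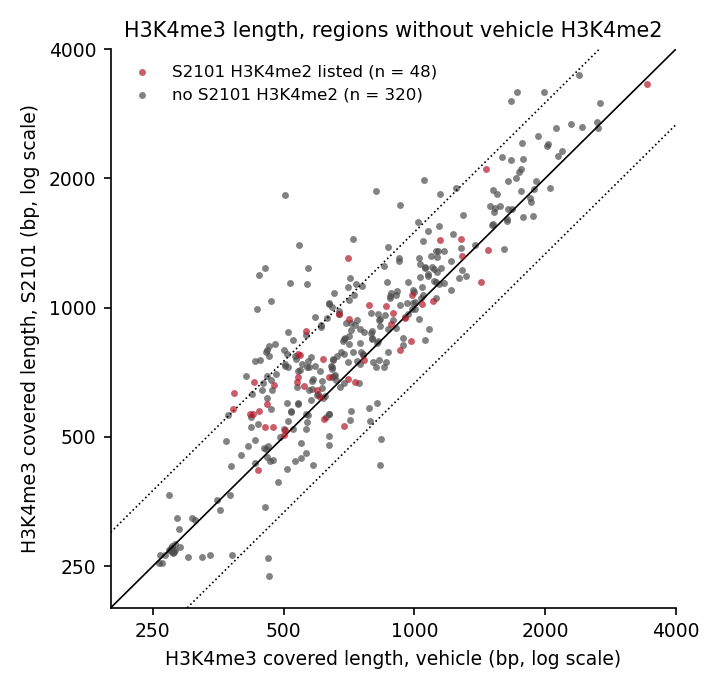
Covered length of H3K4me3 with S2101 (vertical axis) against vehicle (horizontal axis), both in bp on log scales, for each of the 368 regions without vehicle H3K4me2; red points held an S2101 H3K4me2 peak and grey points did not. The solid line marks equal length and the dotted lines a 1.5-fold difference; 273 points lie above the solid line, 49 on or beyond the upper dotted line and 4 on or beyond the lower one.

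The greatest relative gain in H3K4me3 length was on chromosome 18 (4994565 to 4996399), where peaks covered 1835 bp with S2101 and 504 bp with vehicle, a ratio of 3.64. The next were on chromosome 13 (24489132 to 24490367), with 1236 bp with S2101 and 454 bp with vehicle, and on chromosome 3 (152140775 to 152141975), with 1195 bp with S2101 and 439 bp with vehicle. All 5 regions with the highest ratios had a vehicle score between 100.42 and 128.88, near the bottom of that list. At the opposite end, a region on chromosome 1 (102128028 to 102128490) had 237 bp with S2101 and 463 bp with vehicle, a ratio of 0.512. One on the X chromosome (150129708 to 150130829) had 430 bp with S2101 and 832 bp with vehicle.

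A few of the 368 regions had long H3K4me3 in spite of lacking vehicle H3K4me2, with vehicle scores that ranged widely. The longest with S2101 was on chromosome 7 (6681510 to 6684992), where H3K4me3 covered 3483 bp at a score of 3105.97 with S2101 and 2398 bp at a score of 1736.79 with vehicle. No H3K4me1 was listed there in either treatment, nor S2101 H3K4me2, and the nearest vehicle H3K4me2 peak was 34695 bp away. Directly beside it, on chromosome 7 (6679760 to 6681161), lay a second region of the set with 1402 bp with S2101 and 544 bp with vehicle, and another lay at 6647396 to 6649370. Another on chromosome 7 (53631668 to 53634671) had 3004 bp at the limit with S2101 and 2670 bp at a score of 2730.27 with vehicle. On chromosome 9 (5308566 to 5311748) H3K4me3 covered 3183 bp at a score of 2320.5 with S2101 and 1727 bp at a score of 563.54 with vehicle. On chromosome 1 (17591829 to 17595010) it covered 3182 bp at a score of 1920.36 with S2101 and 1986 bp at a score of 1024.11 with vehicle. On chromosome 4 (123287959 to 123290991) it covered 3033 bp at a score of 1245.01 with S2101 and 1669 bp at a score of 426.2 with vehicle. These last 3 regions, and the one at 53631668 to 53634671 on chromosome 7, had H3K4me3 as their sole listed mark, as did 306 of the 368.

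The 4 regions at the score limit in both treatments were spread over separate chromosomes. On chromosome 11 (3101341 to 3104091) H3K4me3 covered 2713 bp with S2101 and 2640 bp with vehicle, and on the X chromosome (75039711 to 75042104) 2377 bp with S2101 and 2021 bp with vehicle. Neither had another listed mark. On chromosome 14 (13116441 to 13117784) H3K4me3 covered 1320 bp with S2101 and 1288 bp with vehicle, and S2101 H3K4me2 covered 592 bp. The last lay on chr1_random (268918 to 272350), DNA assigned to chromosome 1 without a fixed place. H3K4me3 covered 3317 bp with S2101 and 3433 bp with vehicle there, and S2101 H3K4me2 covered 1443 bp at a score of 142.71, the greatest length of that mark in the set.

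Where H3K4me2 was listed with S2101, it was short and low-scoring. In the 48 regions its covered length had a median of 333.5 bp (range 201 to 1443 bp), against 1127.5 bp in the regions with vehicle H3K4me2 that held it. Its highest score had a median of 152 and reached at most 312.3, against a median of 409 in the comparison regions, and 22.2% of the S2101 H3K4me2 list scored lower than the median of the 48. The sets were split on this mark with vehicle and were not matched for H3K4me3 length. Part of these differences can thus follow from the choice of regions. The top score was on chromosome 2 (37627092 to 37627834), where S2101 H3K4me2 covered 595 bp. H3K4me3 covered 643 bp there with S2101 and 598 bp with vehicle, and the nearest vehicle H3K4me2 peak was 67252 bp away. The next highest, on chromosome 16 (18626352 to 18627344, score 265.17) and chromosome 19 (12039164 to 12039892, score 251.84), had a vehicle H3K4me2 peak at 741 bp and at 575 bp. On chromosome 5 (38698714 to 38699309) the score was 246.73, and on the X chromosome (162607697 to 162609183) it was 243.01. H3K4me3 in that X region covered 1366 bp with S2101 and 1478 bp with vehicle.

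H3K4me3 was of similar length and score in the regions with and without S2101 H3K4me2. With S2101 it covered a median of 756 bp in the 48 (95% interval of the median 662 to 940) and 846 bp in the 320 (781 to 911). With vehicle it covered 654 bp in the 48 (547 to 786) and 708.5 bp in the 320 (652 to 760). The median S2101 H3K4me3 score was 395 in the 48 and 433 in the 320, and the median vehicle score was 225 in the 48 and 262 in the 320. The intervals of the lengths overlap.

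H3K4me1 was listed in 16 of the 368 regions, with one treatment or both. The longest H3K4me1 stretch was on chromosome 1 (43196808 to 43200208), where it covered 300 bp with S2101 and 2836 bp with vehicle, beside H3K4me3 of 842 bp with S2101 and 526 bp with vehicle. On chromosome 14 (70566783 to 70568021) it covered 435 bp with S2101 and 902 bp with vehicle. On chromosome 10 (60395604 to 60397191) it covered 884 bp with vehicle and was not listed with S2101. On chromosome 10 (13588225 to 13589473) it covered 525 bp in each treatment, and on chromosome 5 (144401948 to 144403950) 307 bp with S2101 and 665 bp with vehicle. The sole region with H3K4me1 in S2101 but not vehicle was on chromosome 4 (149689416 to 149689786), with 371 bp. All 16 lay on autosomes.

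The cover near the centre of the regions showed a like contrast, except for S2101 H3K4me1 at the centre itself. There it covered 0.815% of the 368 regions and 0.859% of the comparison regions. Vehicle H3K4me1 covered 1.36% of the centres in the 368 regions and 5.56% in the comparison regions. At 1 kb below the centre, S2101 H3K4me3 covered 11.1% of the 368 regions and 45.5% of the comparison regions. Positions at 1 kb are thus not at like places in the 2 sets. H3K4me1 covered 0.272% of positions 1 kb below the centre with S2101 and 0.543% with vehicle, and 0.543% with S2101 and 2.17% with vehicle 1 kb above it. In the regions with vehicle H3K4me2, these shares were 2.34% with S2101 and 10.5% with vehicle below the centre, and 2.49% with S2101 and 10.3% with vehicle above it. S2101 H3K4me2 covered 8.15% of the centres in the 368 regions and 59.7% in the comparison regions. Farther out, vehicle H3K4me2 covered 4.08% of positions at 10 kb below the centre in the 368 regions and 3.86% in the comparison regions. At 5 kb below it covered 1.63% in the 368 regions and 3.86% in the comparison regions, at 5 kb above 2.17% in the 368 regions and 3.98% in the comparison regions, and at 10 kb above 1.36% in the 368 regions and 3.87% in the comparison regions. H3K4me3 reached 500 bp below the centre in 39.7% of the 368 regions with S2101 and in 32.9% with vehicle, against 90.1% with S2101 and 85.7% with vehicle in the comparison regions.

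**Figure D4:**
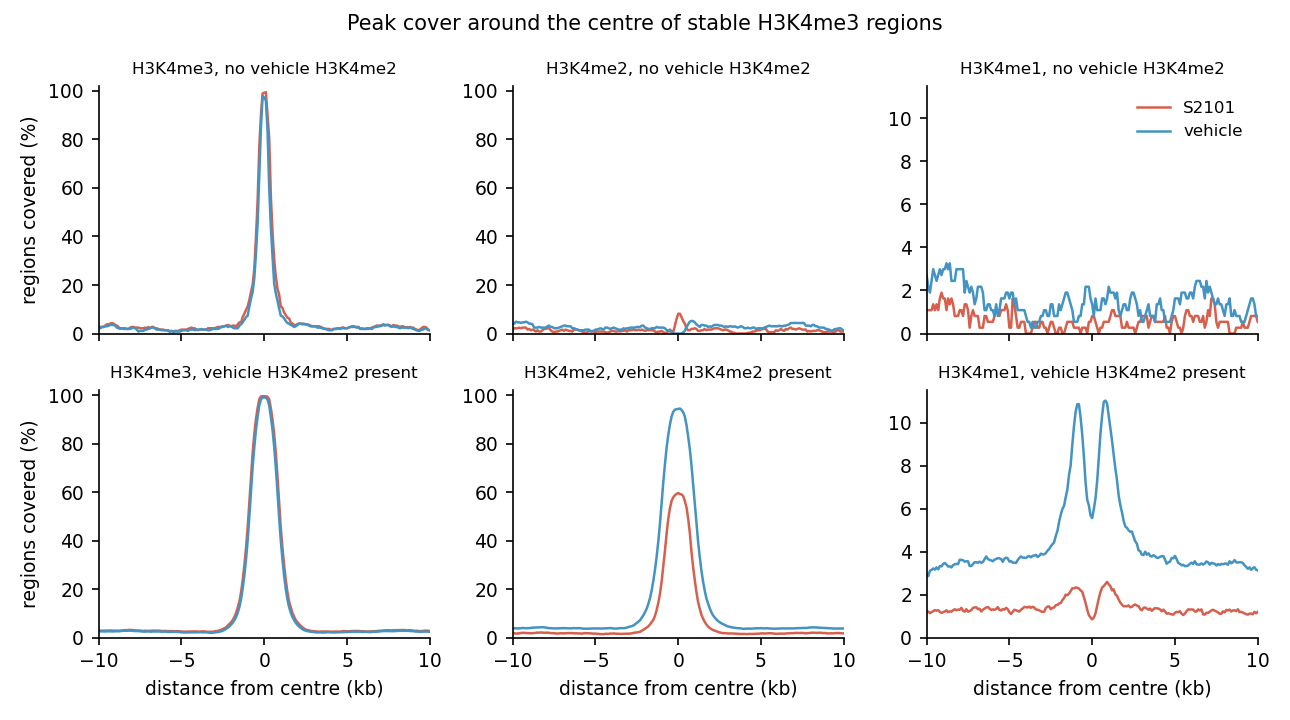
Percentage of regions covered by a peak at each distance from the centre of the H3K4me3 span, from 10 kb below to 10 kb above in steps of 100 bp, with S2101 (red lines) and vehicle (blue lines). The top row shows the 368 regions without vehicle H3K4me2 and the bottom row the 12347 with it; panels in a column share an axis, and that of H3K4me1 is the shortest. The H3K4me1 shoulders of the bottom row, 10.5% and 10.3% at 1 kb with vehicle, are not seen in the top row, and vehicle H3K4me2 is at 0 at the top centre by the rule.

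The X chromosome held more of these regions than any autosome. Of its 403 stable H3K4me3 regions, 63 lacked vehicle H3K4me2 (15.6%, 12.4 to 19.5%), against 299 of 12293 on the autosomes (2.43%, 2.17 to 2.72%). Put the other way, 17.1% of the 368 regions lay on X, which holds 3.17% of all stable regions. Among the autosomes the share ran from 0.677% on chromosome 19 (3 regions) to 5.57% on chromosome 13 (30 regions), with 4.87% on chromosome 7 (44 regions). The lists of the other marks were sparse on X as a whole. H3K4me2 had 229 of 24444 peaks there with S2101 and 487 of 21447 with vehicle, and H3K4me1 had 21 of 20664 with S2101 and 77 of 40432 with vehicle. H3K4me3 had 453 of 14324 with S2101 and 433 of 13589 with vehicle. The part of this sparseness in the X share was not tested.

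The excess on X was present within classes of H3K4me3 score, and within classes of length up to 2500 bp. In the lowest 10% by vehicle score 39.6% of 53 X regions lacked vehicle H3K4me2 (27.6 to 53.1%), against 14.9% of 1215 autosomal regions (13.0 to 17.0%). At scores of 965.68 to 2041.77 it was 20.2% of 109 X regions (13.7 to 28.7%), against 1.81% of 1159 autosomal ones (1.19 to 2.75%). At 1501 to 2500 bp of vehicle H3K4me3 it was 8.43% of 166 X regions (5.09 to 13.7%), against 0.491% of 5299 autosomal ones (0.335 to 0.718%). In the shortest class the intervals overlapped, with 46.2% of 13 X regions (23.2 to 70.9%) and 35.1% of 202 autosomal ones (28.9 to 42.0%). Above 2500 bp there was no excess, with 0 of 56 X regions (upper limit 6.42%) and 3 of 2563 autosomal ones.

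The X regions of the set had longer and higher-scoring H3K4me3 than the autosomal ones at the median. H3K4me3 covered a median of 1176 bp on X and 788 bp on autosomes with S2101, and 1024 bp on X and 655 bp on autosomes with vehicle. The median highest score was 981 on X and 371 on autosomes with S2101, and 827 on X and 238 on autosomes with vehicle. Of the 44 regions with more than 1500 bp of vehicle H3K4me3, 14 were on X. Among all stable regions, X held 166 of 5469 at 1501 to 2500 bp and 56 of 2623 above 2500 bp. H3K4me3 length and score were not summarised for the other X regions, so whether the difference is particular to this set was not tested. S2101 H3K4me2 was listed in 7 of the 63 X regions (11.1%, 5.49 to 21.2%) and in 39 of the 299 autosomal ones (13.0%, 9.69 to 17.3%). H3K4me1 was listed in 0 of the 63 in either treatment, an upper Wilson limit of 5.75%. It was rare on X also where vehicle H3K4me2 was present, in 2 of 340 regions with S2101 and in 8 of 340 with vehicle. In those 340 regions S2101 H3K4me2 was listed in 45.6%, against 95.3% of 11994 on the autosomes. The median H3K4me3 length ratio was 1.09 on X (1.04 to 1.17) and 1.11 on autosomes (1.09 to 1.16).

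**Figure D5:**
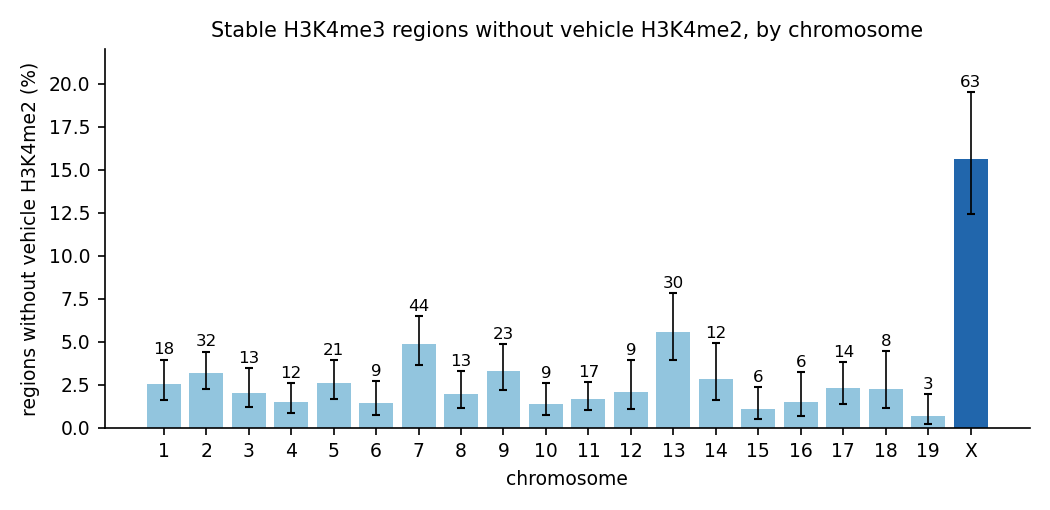
Percentage of the stable H3K4me3 regions on each chromosome that lack vehicle H3K4me2, with 95% Wilson intervals for counting error; the number above each bar is the count of such regions. Light bars are the autosomes and the dark bar is X, which stands at 15.6% with 63 regions while the autosomes run from 0.677 to 5.57%.

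Most of the 368 regions lay more than 10 kb from any vehicle H3K4me2 peak. Part of this is fixed by the rule, which left out regions with such a peak. No like distance was measured for the comparison regions, so the distances describe the 368 alone. The median distance was 35778 bp (quartiles 9674.5 and 130409.5, n = 366), and 2 regions lay on sequences without any such peak. A peak was within 1 kb of 34 regions (9.24%, 6.69 to 12.6%), within 5 kb of 64 and within 10 kb of 93. It was more than 100 kb away from 106 (28.8%) and more than 1 Mb away from 15. S2101 H3K4me2 was listed in 8 of the 34 regions within 1 kb (23.5%, 12.4 to 40.0%) and in 40 of the 334 others (8.92 to 15.9%), intervals that overlap. The share within 1 kb was 16.8% when single vehicle H3K4me3 peaks were counted in place of regions, and 4.09% with a score of at least 200 in all 6 lists.

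The most isolated region was on chromosome 1 (103798482 to 103799421), 3310490 bp from a vehicle H3K4me2 peak. H3K4me3 covered 940 bp there with S2101 and 706 bp with vehicle, and S2101 H3K4me2 covered 269 bp. Of the next ones, 2 were on X, at 120200486 to 120202326 and at 143987420 to 143988931, and 1 was on chromosome 14 (90298563 to 90298837). The fifth, on chromosome 2 (88412832 to 88414214), had 1383 bp of H3K4me3 with S2101 and 869 bp with vehicle.

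At the edge of the rule, the nearest vehicle H3K4me2 peak to a region of the set was 21 bp away, on chromosome 3 (156223799 to 156224263), and 10 regions had one within 100 bp. A region on chromosome 13 (12741995 to 12742845), 47 bp from such a peak, had H3K4me3 scores of 1503.58 with S2101 and 1211.46 with vehicle. Just outside the rule, the smallest stretch of vehicle H3K4me2 within the H3K4me3 span was 77 bp, on chromosome 14 (70008827 to 70011100), and the next was 168 bp, on chromosome 16 (61336340 to 61337544). Of the 12347 regions with vehicle H3K4me2, 74 had a highest vehicle H3K4me2 score under 120. The lowest was 100.3, on chromosome 17 (35322729 to 35323647), with 919 bp of H3K4me3 with S2101 and 788 bp with vehicle.

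Some of the regions were neighbours. In 53 of the 368 (14.4%) another region of the set lay within 100 kb, in 25 groups of which 22 held 2 regions and 3 held 3. Chromosomes 7 and 13 had 13 of the 25 groups, with 14 regions in groups on chromosome 7 and 15 on chromosome 13. A trio on chromosome 13 (13529615 to 13531283) spanned 1669 bp with gaps as small as 54 bp. On chromosome 2 a pair at 180120641 to 180124135 was parted by 47 bp, and on chromosome 7 a pair at 53630910 to 53634671 by 1 bp. These groups were looked for after the regions had been seen, and no like count was made for other stable H3K4me3 regions, so the share is a description of these regions alone.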

How the data were processed

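Peak lists of 6 of the 12 samples were used, 1 per mark and treatment. The other 6 samples (inputs and H3) were not analysed here. Per the file headers, the authors called peaks with MACS within Galaxy, and each deposited list gives position and a score per peak. The quantity behind the score is not named. The build is mm9, and Bowtie2 and deepTools are named, per the submitters' processing notes. Depth is unknown, because the sources used here give no read numbers; caller settings, the control used and duplicate handling are likewise not stated. Fewer reads or weaker enrichment give fewer, shorter and lower-scoring peaks, and an H3K4me2 peak not listed is not shown to be missing from the chromatin.

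Peaks overlapping by at least 1 bp were merged over all lists. Covered length is the length of a region under peaks of a list. Shares have 95% Wilson intervals, differences of shares Newcombe intervals, and medians exact binomial intervals, all for counting error only; neighbouring regions are not independent. The regions and comparisons were chosen with earlier results of these data known. Regions named in the text are taken from the 5 at the top of each ranking, not all of which are printed (H3K4me3, H3K4me2 score, H3K4me1, length ratio, distance to vehicle H3K4me2), plus those at the score limit, in groups or at the edge of the rule, chosen after their values were seen. The planned gene lists and sequence measures were not made without an mm9 genome. The interval code was checked on simulated lists with known answers and against bedtools 2.31.1. It ran in Python 3.11.15 with pandas 2.3.3, numpy 2.4.6 and scipy 1.17.1; figures were drawn with matplotlib 3.10.9.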

Additional observations from a re-analysis of the deposited data

How the results depend on the processing

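Of 99 values, 11 results under 9 alternatives, 75 stayed within their 95% interval (within 1.5 times for the count of regions), and none turned the length ratio round. Requiring a score of at least 200 in all 6 lists gave 538 regions, since low-scoring vehicle H3K4me2 peaks were dropped. They were 4.51% of stable regions, with median H3K4me3 lengths of 1148.5 bp (S2101) and 997.5 bp (vehicle) and a ratio of 1.08. Of them, 8.92% held S2101 H3K4me2, 0.186% S2101 H3K4me1 and 1.49% vehicle H3K4me1, 13.6% (S2101) and 8.55% (vehicle) were at the score limit, and 4.09% had vehicle H3K4me2 within 1 kb. With that threshold in the H3K4me3 lists only, 219 regions were left (1.84% of stable regions), with lengths of 1025 bp (S2101) and 922 bp (vehicle), and 2.28% held vehicle H3K4me1. Counting single vehicle H3K4me3 peaks gave an S2101 length of 909 bp, a ratio of 1.16, 7.43% at the S2101 limit and 16.8% near vehicle H3K4me2. Merging peaks up to 1 kb apart gave 2.58% of stable regions, and 0% near vehicle H3K4me2 by construction. Autosomes alone gave 2.43% and all chromosomes but X 2.48%. With lists of equal length 1.63% held vehicle H3K4me1. The 2 alternatives that leave out X or look for marks within the H3K4me3 span only, and the length classes, were added after seeing the data. No paired analysis was possible because each mark and treatment has 1 library. The depth of the libraries is unknown, so how it limits the lists was not tested.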

Other observations

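A small group of very short regions stood out on the plot of H3K4me3 length and was described after its values had been seen. In 15 of the 368 regions (4.08%, 95% Wilson interval 2.49 to 6.62%) H3K4me3 covered at most 300 bp in each treatment, against 4 of the 12347 stable regions with vehicle H3K4me2 (0.0324%, 0.0126 to 0.0833%). In the 15, H3K4me3 ran from 254 to 282 bp with S2101 and from 258 to 289 bp with vehicle, and the ratio of S2101 over vehicle lay between 0.958 and 1.02. A cap of 300 bp in each treatment leaves this ratio little room, so its closeness to 1 follows from the choice. In the 4 comparison regions it lay between 0.975 and 1.06. Scores of the 15 ran from 133.58 to 1560.97 with S2101 (median 403) and from 140.87 to 1012.55 with vehicle (median 282). The highest was on chromosome 12 (56331565 to 56331849), at 1560.97 with S2101 and 1012.55 with vehicle, with 282 bp in each treatment. The 15 lay on 12 sequences, and none held S2101 H3K4me2 or H3K4me1. All 4 comparison regions held S2101 H3K4me2, as did 91.6% of all stable regions, and none of the 4 held H3K4me1.

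Sequences without a fixed place in the mm9 assembly (names ending in random) held 6 of the 368 regions, out of 19 stable H3K4me3 regions there (31.6%, 15.4 to 54.0%). Beside the one on chr1_random, they included one on chrX_random (159349 to 160560), with 1100 bp of H3K4me3 with S2101 and 1212 bp with vehicle. Those on chr13_random and chr8_random were the 2 regions without any vehicle H3K4me2 peak on their sequence.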
